A study of Homo sapiens with 4 samples.

Results

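The 10 genes described here are immediate early genes, chosen by name as spots other than controls that the array design assigns to FOS, FOSB, FOSL1, JUN, JUNB, EGR1, EGR2, EGR3, IER2 or ATF3. They took 13 of the 43118 spots of an array, and all 10 were among the 21996 genes tested, out of 27193 genes named on the array. Each gene had 1 probe except ATF3, which had 4. The study set 2 arrays of control cells against 2 arrays of cells carrying a shRNA that targets PAK1. Both groups were MCF10A.B2, a line made from the non-tumorigenic human mammary epithelial line MCF10A by adding a chimeric Her2 (ErbB2) receptor that the dimerizer AP1510 switches on. All 4 cultures were grown in DMEM/F12 with 5% horse serum, kept without serum for 3 h and given AP1510 for 15 min. The shRNA was stably expressed under tetracycline control. The labels call the other group only control, and the study's methods name MCF10A.B2 cells set against those with the shRNA. Cells with a non-targeting shRNA or without AP1510 were not analysed here. The values are therefore levels at one time after activation, and induction itself was not measured. The sources do not tell whether the replicates were separate cultures, so p-values measure only the spread between these samples, which may be technical.

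Immediate early genes are transcribed within minutes of growth factor signalling, without new protein synthesis. ErbB2 signals through Ras, MEK and ERK, and ERK phosphorylates the ternary complex factors that sit with serum response factor (SRF) on CArG boxes in the promoters of FOS and the EGR genes, while CREB and ATF proteins bind cyclic AMP response elements there. PAK1 is a kinase known to phosphorylate MEK1. The FOS and JUN proteins pair to form the transcription factor AP-1, the EGR proteins are zinc finger factors, and ATF3 is a bZIP factor also induced by stress.

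The promoters of 4 of the 5 genes that were lower in PAK1 shRNA cells are shown, to place these elements before their starts. Within the 250 bases searched, CArG boxes lie in EGR1 and EGR2 and the core TGACG in all 4. The core also lies in JUN, JUNB and IER2, which were higher. Bases further upstream were not searched, so a CArG box of FOS or FOSB there would be missed. The sequences are the 250 bases before the annotated start in RefSeq (GRCh38.p14), 5′ to 3′ on the strand of the gene, with CArG boxes and the cyclic AMP response element core TGACG, on either strand, in capitals. EGR1 is chr5:138465229-138465478 (plus strand), EGR2 is chr10:62816367-62816616 (minus strand), FOS is chr14:75278578-75278827 (plus strand) and FOSB is chr19:45467746-45467995 (plus strand).
EGR1: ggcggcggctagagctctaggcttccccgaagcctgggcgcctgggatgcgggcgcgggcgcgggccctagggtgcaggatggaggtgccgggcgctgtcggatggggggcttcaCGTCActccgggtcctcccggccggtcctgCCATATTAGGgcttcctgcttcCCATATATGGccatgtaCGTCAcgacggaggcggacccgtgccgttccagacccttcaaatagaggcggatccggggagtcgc
EGR2: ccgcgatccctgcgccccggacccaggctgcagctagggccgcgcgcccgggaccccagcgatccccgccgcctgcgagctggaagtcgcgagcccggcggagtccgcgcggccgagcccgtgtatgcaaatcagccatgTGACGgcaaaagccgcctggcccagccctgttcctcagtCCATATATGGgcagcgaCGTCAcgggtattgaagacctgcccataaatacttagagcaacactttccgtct
FOS: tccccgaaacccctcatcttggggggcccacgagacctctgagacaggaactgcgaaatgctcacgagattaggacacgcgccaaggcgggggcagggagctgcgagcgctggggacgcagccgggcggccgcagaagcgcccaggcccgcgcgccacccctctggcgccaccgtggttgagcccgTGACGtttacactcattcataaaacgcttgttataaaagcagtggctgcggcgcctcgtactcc
FOSB: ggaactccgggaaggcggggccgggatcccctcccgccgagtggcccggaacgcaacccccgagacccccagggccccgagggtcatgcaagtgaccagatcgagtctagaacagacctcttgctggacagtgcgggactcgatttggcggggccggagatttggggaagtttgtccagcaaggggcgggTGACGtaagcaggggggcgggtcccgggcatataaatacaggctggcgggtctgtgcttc

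RefSeq windows were matched for 8 of the 10 genes, with 3 windows for EGR2 and 2 for ATF3, and none for FOSL1 and EGR3. A CArG box was found in 1.16% of all 35116 windows of this length. Among the matched genes it was found in EGR1, at -105 to -96 and at -83 to -74, and in the EGR2 window printed above, at -71 to -62. The core TGACG was in 21.2% of all windows and in a window of 7 of the 8 matched genes. The 2 windows of ATF3 held none. The longer element TGACGTCA, which contains the core, was in 1.65% of all windows and in 0 of the 8. The AP-1 site, TGACTCA or TGAGTCA, was in 4.2% of windows and in 0 of the 8, and the ETS site CCGGAAGT in 3.42% and 0. The EGR site GCGNGGGCG was in 8.41% of windows and in EGR1 alone of the 8, and TATAAA was in 10.7% and in FOS, FOSB, JUNB and ATF3. Both strands were searched, and a match is a run of letters and not a measured binding site. Only these windows were searched, so elements further away or before another start of a gene, ATF3 included, would be missed.

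All 10 genes passed the test between PAK1 shRNA and control cells, 5 lower and 5 higher. FOS, FOSB, EGR1, EGR2 and EGR3 were lower, by log2 fold changes of -0.94 to -3.81. ATF3 was 44.6-fold higher, JUN was 1.83-fold higher, and FOSL1, JUNB and IER2 rose by 1.19-fold to 1.29-fold. The comparison called very many genes: 62.9% of the 21996 passed (limma, adjusted p under 0.05), 31.1% higher and 31.8% lower, so that passing the test sets the 10 genes little apart. The control and PAK1 shRNA arrays did not overlap for any of the 10, as for 81.8% of all genes. A change of at least 2-fold was found for 5 of the 10, 1 higher and 4 lower, against 17.8% of all genes. EGR3, 1 of those 4, entered the test only through the control arrays, where it is high, and the medians given next include it. With the filter for all 4 arrays, 9 of the genes were tested, 5 higher and 4 lower. The 10 genes had a median change of 1.01 log2 units regardless of sign, against 0.38 for all genes, and a median signed change of -0.34 against 0.02. That median lies between 5 lower and 5 higher genes and its sign was not stable. It was 0.26 with the filter for all 4 arrays, which leaves out EGR3, and 0.68 with normexp on all spots and median centring, a setting chosen after seeing the data.

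**Figure D1:**
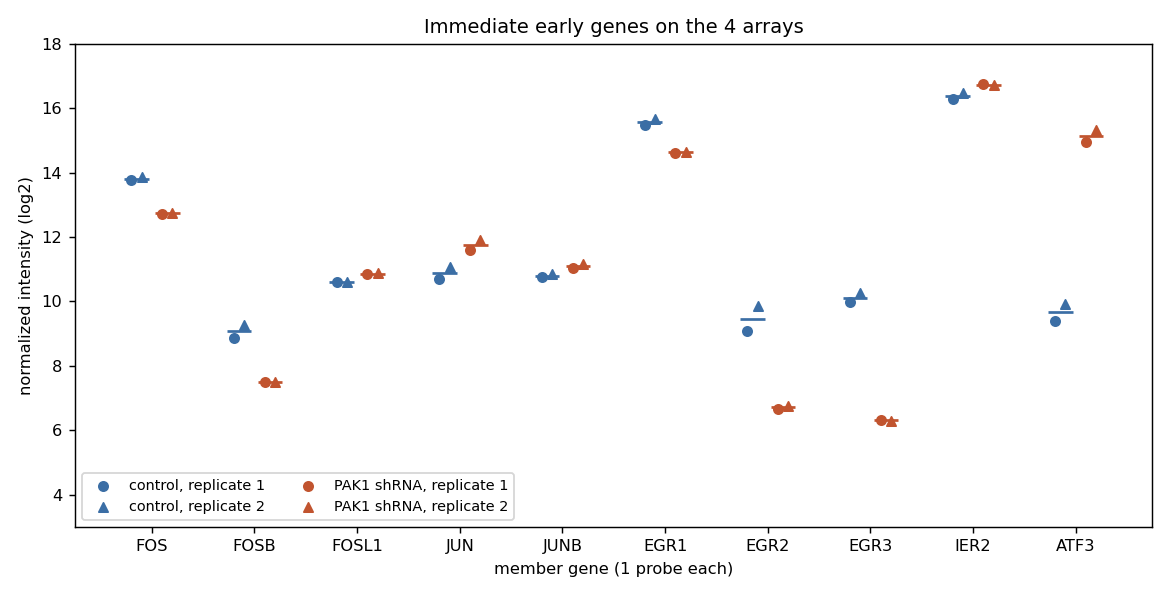
Normalized log2 intensity (vertical axis) of the 10 genes (horizontal axis) on each array, with control in blue, PAK1 shRNA in orange and a line at each group mean (n = 2). The groups did not overlap for any of these genes, as for 81.8% of all genes, and EGR3 was not well above background on either PAK1 shRNA array. Heights can be compared within a gene and not between genes, since each probe has its own response.

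The 4 arrays lay on 1 slide and were alike in detection, with 78.9% to 83.2% of probes well above background. The control arrays were brighter before normalization, with a median spot intensity of 501 and 384 against 326 and 319. PAK1, which the shRNA targets, had normalized log2 intensities of 11.19 and 11.27 in control and 10.45 and 10.51 in PAK1 shRNA cells. This is 59.5% of the control level (log2 fold change -0.75, standard error 0.08, adjusted p = 0.00017). All 8 basal mammary epithelial markers, among them KRT5, KRT14 and TP63, were well above background on all 4 arrays. Of the markers of other cell types, the summed level of 5 leukocyte markers was 19100 to 20000 in control and 50600 to 56500 in PAK1 shRNA cells, with CD14 and CD68 called higher and all 5 well above background on every array. The sum of 6 fibroblast markers was 4100 to 4850 and 7950 to 8160, with COL1A1, DCN and LUM called higher, PDGFRB called lower, and COL1A2 and COL3A1 not well above background on any array. The sums were 2150 to 2230 and 2150 to 2170 for 5 luminal markers, with PGR not well above background on any array, and 1050 to 1090 and 851 to 881 for 4 endothelial markers. The part of these markers in the results was not tested. Fewer cells of a type and less RNA per cell cannot be told apart in such bulk samples.

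The FOS family split. FOS is the prototype partner of JUN in AP-1, and its probe lies at chr14:75748214-75748273 (hg19, as are all probe positions). It had normalized log2 intensities of 13.77 and 13.87 in control and 12.73 and 12.74 in PAK1 shRNA cells. Both PAK1 shRNA arrays were at least 1.03 log2 units below the lower control array, which leaves 47.1% of the control level (log2 fold change -1.09, standard error 0.08, limma adjusted p = 3.2e-05). FOSB, a close relative that also needs a JUN partner, was measured at chr19:45978205-45978264. Its values were 8.88 and 9.28 in control and 7.51 and 7.49 in PAK1 shRNA cells, and its spread lay mostly between the control arrays. FOSB was thus at 33.4% of the control level (log2 fold change -1.58, standard error 0.13, adjusted p = 6.8e-05). FOSL1, which encodes FRA-1, the FOS family member that accumulates later and lasts longer after a growth signal, was measured at chr11:65660098-65660157. Its values were 10.59 and 10.62 in control and 10.84 and 10.88 in PAK1 shRNA cells, so the groups lay close together without overlap. The rise was 1.19-fold (log2 fold change 0.26, standard error 0.07, adjusted p = 0.019). It did not pass under median centring (0.14, adjusted p = 0.19), where the median of all genes was also 0.14, nor without control replicate 1 (0.24, adjusted p = 0.057), PAK1 shRNA replicate 1 (0.28, adjusted p = 0.06) or PAK1 shRNA replicate 2 (0.24, adjusted p = 0.098).

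Both JUN family genes were higher. JUN, the most active AP-1 partner and a substrate of the JNK kinases, was measured at chr1:59246511-59246570. It had normalized log2 intensities of 10.71 and 11.06 in control and 11.60 and 11.92 in PAK1 shRNA cells. The replicates of each group differed by 0.34 and 0.32, and the lower PAK1 shRNA array was 0.54 above the higher control array. The rise was 1.83-fold (log2 fold change 0.87, standard error 0.15, limma adjusted p = 0.002). It did not pass the methods' t-test of the general statistical section, which estimates the spread from this gene alone. For arrays the study's methods name limma, which JUN passed here. JUNB, a weaker activator that can hold JUN back, was measured at chr19:12902998-12903057. Its values were 10.76 and 10.84 in control and 11.05 and 11.17 in PAK1 shRNA cells, again without overlap. The rise was 1.24-fold (log2 fold change 0.31, standard error 0.08, adjusted p = 0.015). It did not pass under median centring (0.19, adjusted p = 0.11), without control replicate 1 (0.27, adjusted p = 0.056) or without PAK1 shRNA replicate 2 (0.24, adjusted p = 0.098).

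The small rises are changes relative to the other genes of an array. Before normalization the mean spot intensity of FOSL1 was 2086 and 1668 in control and 1502 and 1535 in PAK1 shRNA cells. For JUNB it was 2353 and 1950 against 1739 and 1875, and for IER2 101900 and 97140 against 90810 and 93390. For these 3 genes each PAK1 shRNA array was dimmer than both control arrays, and the order turned with normalization. JUN was brighter already in the scanner values, at 2265 and 2274 in control against 2595 and 3198 in PAK1 shRNA cells, as was ATF3, at 878 and 1008 against 26830 and 37020.

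The 3 EGR genes were lower, and the falls differed in size. EGR1, the zinc finger factor that growth factors induce in most cell types, was measured at chr5:137804891-137804950. It was at 15.47 and 15.67 log2 units in control and 14.62 and 14.65 in PAK1 shRNA cells, and it stayed a bright gene on all 4 arrays. Its level was 52.2% of control (log2 fold change -0.94, standard error 0.09, adjusted p = 0.00013). EGR2, a relative known for its role in myelination, was measured at chr10:64571850-64571909. Its values were 9.08 and 9.86 in control and 6.66 and 6.76 in PAK1 shRNA cells. The control arrays differed by 0.79, the widest gap between replicates among the 10 genes, and still lay far above the PAK1 shRNA arrays. EGR2 was at 14.7% of control (log2 fold change -2.76, standard error 0.23, adjusted p = 7.1e-05). EGR3, which EGR1 and EGR2 resemble in their DNA binding domain, was measured at chr8:22545964-22546023. Its values were 9.97 and 10.25 in control and 6.33 and 6.28 in PAK1 shRNA cells, where it was not well above background on either array. At the settings used here EGR3 was therefore at least 14.0-fold lower (limma adjusted p = 9e-07), and 61 of all 21996 genes had a larger fall. That bound moves with the processing. The log2 fold change of EGR3 was -3.81 here and -2.46 with normexp fitted on all spots. It was -3.17 with a normexp offset of 100 and -4.58 with an offset of 16.

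The direction of FOS and of EGR1 turned in 1 of the settings tried. In a setting chosen after seeing the data, with normexp fitted on all spots and median centring, FOS was at 0.14 (adjusted p = 0.3) and EGR1 at 0.36 (adjusted p = 0.0073) on the log2 fold change scale, where the median of all genes was 0.14. PAK1 itself was at 0.16 there (adjusted p = 0.24). FOSB, EGR2 and EGR3 stayed lower in that setting, at -1.25, -2.18 and -2.95.

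IER2 encodes a small nuclear protein of the immediate early response, and its probe lies at chr19:13265586-13265645. It had normalized log2 intensities of 16.28 and 16.47 in control and 16.75 and 16.73 in PAK1 shRNA cells, so that its arrays did not overlap but lay close together. The rise was 1.29-fold (log2 fold change 0.36, standard error 0.09, limma adjusted p = 0.0099). It did not pass the methods' t-test of the general statistical section, which was not the test the study named for arrays.

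ATF3 had the largest change of the 10 genes. It encodes a bZIP factor that binds cyclic AMP response elements as a homodimer or with JUN proteins and that often acts as a repressor. The probe that stands for it, at chr1:212793856-212793915, had normalized log2 intensities of 9.39 and 9.93 in control and 14.94 and 15.34 in PAK1 shRNA cells. The groups lay 5.00 log2 units apart at their nearest arrays. The rise was 44.6-fold (log2 fold change 5.48, standard error 0.20, adjusted p = 2.4e-06), and 40 of all genes rose more.

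The other 3 ATF3 probes all rose and differed in size. The probe at chr1:212788502-212788561 was at 8.29 and 8.58 in control and 11.48 and 11.66 in PAK1 shRNA cells, an 8.8-fold rise (log2 fold change 3.14, standard error 0.12). The probe at chr1:212792837-212792896 was at 6.62 and 6.78 against 10.41 and 10.89, a 15.4-fold rise (3.94, standard error 0.15). Of RefSeq transcripts the array lists NM_001674, NM_001030287 and NM_001040619 for these and for the probe with the largest rise. The remaining probe, at chr1:212792519-212792578, is listed for NM_001040619 alone of the 3, and it was at 8.94 and 8.93 against 9.61 and 9.70, a 1.64-fold rise (0.71, standard error 0.08, adjusted p over all probes = 0.00015). With the mean over its probes ATF3 had a log2 fold change of 3.32 in place of 5.48. The sequences of the probes with the intermediate rises, which all 3 transcripts share, are shown to place these measurements.
ATF3 probe at 212788502: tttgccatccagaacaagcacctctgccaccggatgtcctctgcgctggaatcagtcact
ATF3 probe at 212792837: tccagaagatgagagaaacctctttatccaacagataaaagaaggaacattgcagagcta

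**Figure D2:**
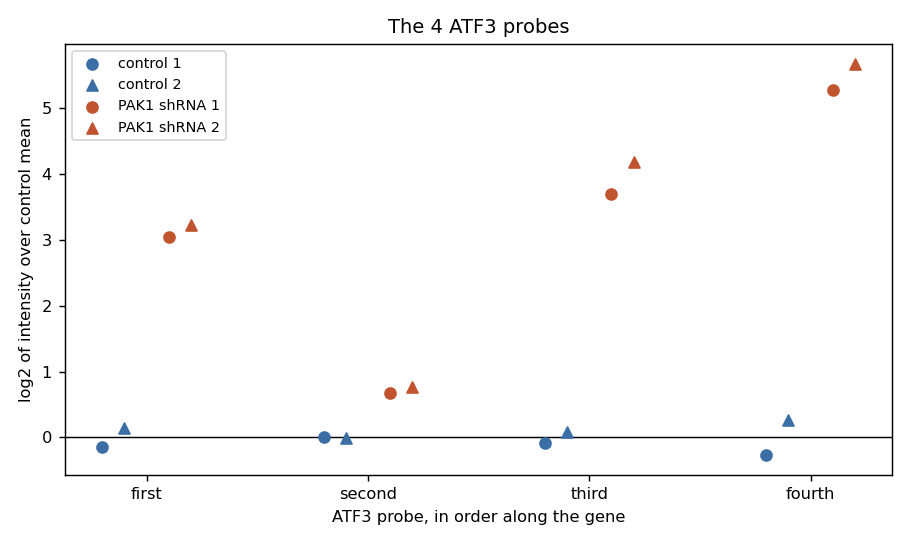
Log2 ratio of each array to the control mean (vertical axis) for the 4 ATF3 probes in order of position (horizontal axis), with control in blue and PAK1 shRNA in orange. Every probe was higher on both PAK1 shRNA arrays, by 0.67 and 0.76 for the second probe and by 5.28 and 5.68 for the fourth.

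Set against all tested genes, ATF3 lay above and FOSB, EGR2 and EGR3 lay below the range from -1.35 to 1.46 that holds the central 90% of log2 fold changes. FOSL1, JUNB and IER2 lay between the 25th and 75th percentiles, -0.40 and 0.36, or at their edge. FOS, EGR1 and JUN lay between these ranges.

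**Figure D3:**
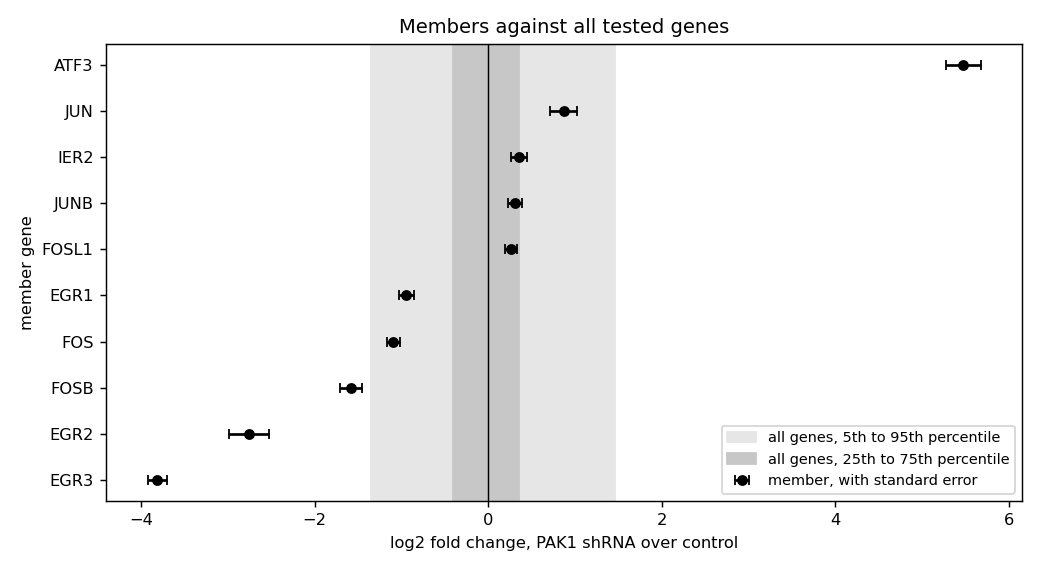
Log2 fold change of PAK1 shRNA over control cells (horizontal axis) for each of the 10 genes (vertical axis) with its standard error from limma. Grey bands give the 5th to 95th and the 25th to 75th percentiles of all tested genes, and ATF3, FOSB, EGR2 and EGR3 fall outside the wider band.

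Replicates differed in a shared direction within the control group. All 10 genes were higher in control replicate 2 than in control replicate 1, by a median of 0.24 log2 units, whereas 49.6% of all genes were, with a median of 0.00. In PAK1 shRNA cells 7 of the 10 were higher in replicate 2, by a median of 0.04. Of all 21996 genes 9918 were higher there, with a median of -0.01. Leaving out any 1 array gave log2 fold changes of -1.15 to -1.05 for FOS, -1.74 to -1.36 for FOSB, -1.05 to -0.86 for EGR1, -3.07 to -2.34 for EGR2, -3.91 to -3.65 for EGR3 and 5.23 to 5.76 for ATF3.

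**Figure D4:**
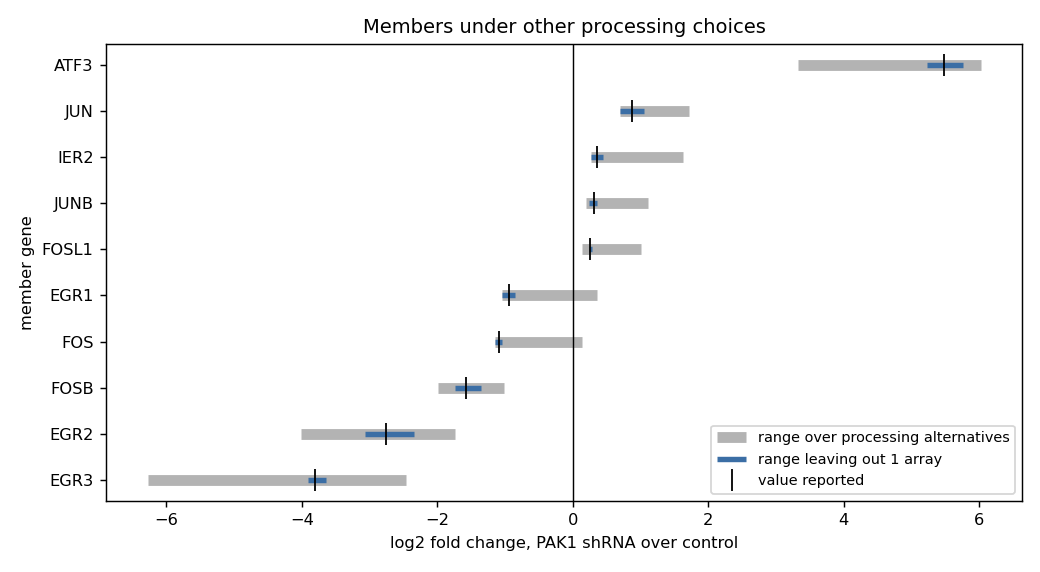
Log2 fold change of PAK1 shRNA over control cells (horizontal axis) of each gene (vertical axis) as reported (black mark), over all processing alternatives (grey bar) and when 1 array was left out (blue bar). The grey bars of FOS and EGR1 cross 0, reaching 0.14 and 0.36, and that of EGR3 spans -6.27 to -2.46.

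The genes around these 10 were counted list by list. The counts are to be read against all genes, of which 62.9% were called, 31.1% higher and 31.8% lower. Of 12 further AP-1 and bZIP partners, 8 were higher and 1 lower, with a median log2 fold change of 0.59, which was 1.23 with normexp on all spots and median centring. BATF2, a BATF family factor induced by interferon, was at 7.40 and 7.48 in control and 14.73 and 14.86 in PAK1 shRNA cells (log2 fold change 7.36, standard error 0.08). BATF3, which pairs with JUN in immune cells, rose by 3.27 (standard error 0.15), and MAFF, a small MAF protein, by 1.96 (standard error 0.11). FOSL2, which encodes FRA-2, rose by 0.75 (standard error 0.09). JDP2, a JUN partner that represses AP-1, was the 1 that fell, at -0.45 (standard error 0.08, adjusted p = 0.0027), and it was at 0.32 in the setting with normexp on all spots and median centring.

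Other immediate early genes rose more often than they fell. Of 29 listed genes 28 were tested, NR4A1 being the exception, and 18 were higher and 7 lower. Their median was 0.70, which was 0.44 with the mean over the probes of a gene and 1.92 with normexp on all spots and median centring. ARC, 1 of the 7 lower, entered the test only through the control arrays, where it is high. With the filter for all 4 arrays 27 were tested, 18 higher and 6 lower, with a median of 0.72. KLF4, a zinc finger factor of epithelial differentiation, was at 7.20 and 7.17 in control and 10.59 and 10.97 in PAK1 shRNA cells (log2 fold change 3.59, standard error 0.13). PTGS2, the inducible cyclooxygenase, rose by 2.92 (standard error 0.20), HBEGF, a ligand of the EGF receptor, by 2.63 (standard error 0.14) and CSRNP1, a nuclear factor, by 2.55 (standard error 0.16). KLF10, a TGF-beta inducible repressor, was at 11.33 and 11.51 against 9.74 and 9.88 (log2 fold change -1.61, standard error 0.10). EGR4, the remaining EGR gene, named after its values were seen, was at 8.78 and 9.53 against 7.60 and 7.80 (log2 fold change -1.45, standard error 0.23, adjusted p = 0.0013).

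Among 8 genes of SRF, its cofactors and the EGR co-repressors, 2 were higher and 3 lower, with a median of -0.02. These 5 of 8 called are near the share of all genes, 62.9%. With normexp on all spots and median centring 4 were higher and 1 lower, with a median of 0.26. MKL2, an actin-regulated SRF coactivator, was at 12.03 and 12.22 against 10.92 and 10.81 (log2 fold change -1.26, standard error 0.09), and did not pass in that setting (-0.22, adjusted p = 0.098). NAB2, an EGR co-repressor that EGR factors themselves induce, was at 14.77 and 14.67 against 13.41 and 13.58 (-1.22, standard error 0.09), and at 0.03 in that setting. The ternary complex factors ELK4 and ELK3 rose by 0.62 (standard error 0.07) and 0.46 (standard error 0.08).

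In the route from ErbB2 to ERK, JNK and p38, 5 of 22 genes were higher and 8 lower, with a median of -0.12. These 13 of 22 called are near the share of all genes, 62.9%. With normexp on all spots and median centring the list turned, with 17 higher, 1 lower and a median of 0.67. ERBB3, the partner receptor of ErbB2, rose by 1.31 (standard error 0.11), and SHC1, its adaptor, by 1.07 (standard error 0.07). MAPK9, which encodes JNK2, was at 10.77 and 10.96 against 9.92 and 9.85 (log2 fold change -0.97, standard error 0.09), and did not pass in that setting (-0.13, adjusted p = 0.33). ERBB2 was at 12.64 and 12.59 in control and 11.85 and 11.79 in PAK1 shRNA cells (-0.80, standard error 0.07, adjusted p = 0.00011), and at 0.31 in that setting. A further ERBB2 probe, at chr17:37851136-37851195, did not pass (-0.09, adjusted p over all probes = 0.41), and whether either probe reads the chimeric receptor is not stated.

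Of 9 genes that AP-1 is known to drive and that were well above background on all 4 arrays, 7 were higher and 2 lower, with a median of 0.76. The other 3 of the list, MMP13, MMP3 and IL8, entered the test only through the PAK1 shRNA arrays, where they are high. With them the count was 10 of 12 higher and the median 1.39, or 1.38 with these 3 at their bounds. PLAUR, the urokinase receptor, was at 10.45 and 10.57 in control and 14.40 and 14.81 in PAK1 shRNA cells (log2 fold change 4.10, standard error 0.14). The collagenase MMP1 rose by 2.55 (standard error 0.20) and VEGFA, an angiogenic growth factor, by 1.38 (standard error 0.08). MMP10 was at -0.37 (standard error 0.08, adjusted p = 0.0057), and did not pass under median centring (adjusted p = 0.093). MMP13, MMP3 and IL8 were not well above background on the control arrays. At the settings used here their rises were at least 20.0-fold, 2.59-fold and 3.65-fold.

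Of 7 stress genes (ATF4 and CHOP response, or unfolded protein response), 3 were higher and 2 lower, against 62.9% of all genes called. Their median was 0.04, and 1.16 with normexp on all spots and median centring. XBP1, a factor of the unfolded protein response, was at 14.22 and 14.19 against 16.56 and 17.01 (log2 fold change 2.58, standard error 0.14), and SESN2 rose by 1.22 (standard error 0.08). The ATF4 targets TRIB3 and ASNS were lower, at -1.72 (standard error 0.13) and -1.62 (standard error 0.09). ATF4 itself was at 17.01 and 17.02 against 17.10 and 17.10 and did not pass (0.08, adjusted p = 0.35).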

How the data were processed

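Whole genome arrays of 2 control and 2 PAK1 shRNA samples were analysed, grouped by their labels. The authors deposited scanner intensity values per spot (Agilent Feature Extraction 9.5.3.1, not normalized between arrays) and their own table of normalized log2 values, which served for 1 alternative. Positions are those of the scanner files. As in the study's methods, intensities were corrected with normexp, quantile normalized and tested with limma (here 3.58.1 in R 4.3.3). The offset of 50, the filters and the probe rule were chosen here, as was adjusting p-values over all genes by Benjamini-Hochberg. Genes with an adjusted p under 0.05 were called. The normexp parameters were fitted without spots of flagged local background, and spots with such a background above 100 and feature outliers were left out. A probe was tested if it was well above background on each array of 1 or both groups, and of several such probes the brightest on average represented the gene. At background, a fold is a bound against the higher of the lowest signal well above background and the probe's own. Such a bound holds only for the offset and the normexp fit used here. With 2 arrays against 2, an exact permutation test cannot go below p = 0.333. The members and gene lists were chosen with earlier results of these data known. Of each list up to 4 genes were named, by the largest absolute change among those well above background on all arrays and past the threshold, with any lying opposite. Of the genes this rule picks, 1 is not reported here. Motifs were searched in RefSeq promoter windows (GRCh38.p14). The test was checked on simulated data. The number of arrays limits the precision.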

Additional observations from a re-analysis of the deposited data

How the results depend on the processing

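Over 25 alternatives (24 for EGR3, which had no value under the filter for all 4 arrays), FOSB, EGR2, EGR3 and ATF3 kept their direction and passed every time, with ranges of -1.99 to -1.02, -4.01 to -1.74, -6.27 to -2.46 and 3.32 to 6.02. With normexp on all spots and median centring, a setting added after seeing the data, FOS (0.14), EGR1 (0.36), PAK1 (0.16), JDP2 (0.32), NAB2 (0.03) and ERBB2 (0.31) reversed, and 3 members were lower and 6 higher. The cause was not tested. The number of members higher, 5 here, was 3 under median centring and 3 at an adjusted p under 0.01. It was 1 at a change of at least 2-fold, and with the unpaired t-test 3 before adjustment and 2 after it. FOSL1 no longer passed under the 75th percentile (0.25, adjusted p = 0.055), under median centring (0.14), at the threshold of 0.01 (0.26), and, without 1 array, ranged from 0.24 to 0.28. JUNB no longer passed under median centring (0.19), at 0.01 or with the unpaired t-test after adjustment (0.31), and ranged from 0.24 to 0.36 without 1 array. JUN (0.87) and IER2 (0.36) did not pass the unpaired t-test before or after adjustment. FOSL1 (0.26), JUN, JUNB, IER2, EGR1 (-0.94) and PAK1 (-0.75) changed by less than 2-fold. Over all genes, 4417 were higher with the unpaired t-test after adjustment, and 1950 higher and 1967 lower at 2-fold. Same-numbered arrays showed almost no shared deviation (correlation 0.00812 over 27505 probes), which cannot tell whether the samples were handled in pairs. With the replicate block 5 members were higher and 5 lower, and 7029 genes higher and 7090 lower. Of 673 values of 27 named genes of the lists, 658 kept their direction and call and 12 no longer passed. The slide was not run as a block, since all arrays lay on 1. The median of all genes was 0.14 under median centring and 0.12 under the 75th percentile, against 0.02. EGR3 in PAK1 shRNA cells is limited by its signal over background.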

Other observations

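Feedback genes that the same signals induce were also measured, and those given here were named after their values were seen. DUSP1, a phosphatase that switches off MAP kinases, was at 11.05 and 11.17 in control and 12.61 and 12.72 in PAK1 shRNA cells (log2 fold change 1.56, standard error 0.08, limma adjusted p = 1.1e-05). ZFP36, which speeds the decay of unstable mRNAs, was at 14.34 and 14.27 against 15.35 and 15.47 (log2 fold change 1.11, standard error 0.08). The pseudokinase TRIB1 was at 11.91 and 12.41 against 14.35 and 14.41 (log2 fold change 2.22, standard error 0.16). PPP1R15A, a phosphatase subunit of the stress response, was at 8.44 and 8.63 against 10.80 and 11.22 (log2 fold change 2.48, standard error 0.14). The groups of these 4 genes did not overlap, as for 81.8% of all genes.

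MYC, a transcription factor of cell growth, was at 14.70 and 14.89 in control and 15.47 and 15.44 in PAK1 shRNA cells (log2 fold change 0.66, standard error 0.09). PHLDA1, an epithelial gene of growth factor signalling, was lower, at 11.14 and 11.45 against 10.72 and 10.49 (log2 fold change -0.69, standard error 0.13).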
